A study of Homo sapiens with 4 samples.

Results

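The genes described here are the coactivators YAP1 and WWTR1 (the gene of TAZ), the DNA-binding partners TEAD1, TEAD2, TEAD3 and TEAD4, and 4 direct targets of the complex, CTGF, CYR61, AMOTL2 and AJUBA. They were found by gene symbol, with CTGF and CYR61 under the symbols the tables use (now CCN2 and CCN1), and all 10 had a row among the 19974 rows of each table. All 10 also passed the filter on low values that left 11222 genes for testing. HCT116, a human colon cancer cell line, was transfected for 36 h either with a non-targeting siRNA (si-NC) or with an siRNA against the long noncoding RNA LINC00152 (si-152). Each siRNA was used at 100 nM, so the control cells were transfected too, and each group held 2 biological replicates of this single line. The study was concerned with how YAP1, TEAD1 and LINC00152 are connected, and the comparison here asks whether YAP1, TAZ, the TEADs and their targets differed once LINC00152 was targeted. The LINC00152 transcript is not analysed here, and the strength of the knockdown is therefore unchecked.

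YAP1 and TAZ are the transcriptional coactivators at the end of the Hippo pathway. When the kinases MST1/2 and LATS1/2 are active, YAP1 and TAZ are phosphorylated, held in the cytoplasm and degraded, and when the kinases are quiet the coactivators enter the nucleus, bind TEAD factors and switch on growth genes. This control acts largely on the proteins, which RNA levels do not show. Some targets feed back on the pathway, as AMOTL2 binds and restrains YAP1, and AJUBA binds and restrains LATS kinases. In the gut, YAP1 serves crypt regeneration and is often raised in colorectal cancer.

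The unit was taken to be FPKM, a fragment count scaled by library size and by transcript length, which allows genes to be compared within a library. The number of reads is unknown, and no counting error can be given. Summed FPKM ranged from 424754 to 534311, and median-of-ratios size factors ran from 0.951 in si-NC replicate 2 to 1.036 in si-NC replicate 1. The first principal component, with 54.4% of the variance, separated replicate 1 from replicate 2 in both groups, and the second, with 28.9%, separated si-152 from si-NC. Of 10 colon epithelial markers 6 were tested, namely EPCAM, KRT8, KRT18, KRT19, CDH1 and CDX2, while KRT20 and LGALS4 were listed at 0 in every library and VIL1 and CDH17 stayed under 1 FPKM. KRT8 and KRT18 were lower in both si-152 libraries than in both si-NC libraries, as were 13.9% of all tested genes. For EPCAM, KRT19, CDH1 and CDX2 the groups overlapped. The part of KRT8 and KRT18 in the results was not tested. The 10 markers summed to between 2386 and 3529 FPKM in a library. The fibroblast list summed to between 7.11 and 8.13 FPKM, nearly all of it COL1A1, with COL1A2 and DCN listed at 0, the endothelial list to at most 0.322 FPKM, and the immune list to between 2.97 and 3.54 FPKM, mainly CD68, with PTPRC listed at 0. In bulk RNA of this kind, fewer cells that express a gene and less RNA per cell cannot be told apart.

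TEAD factors recognise the core motif CATTCC, which reads GGAATG on the other strand. RefSeq promoter windows on GRCh38.p14 were at hand for 7 of the 10 genes (11 windows, with a pair of starts each for WWTR1, TEAD2, AMOTL2 and AJUBA). CYR61, TEAD1 and TEAD4 had no entry. In the 250 bases before each start the motif, searched on both strands, occurred in 4 of the 11 windows, those of CTGF, YAP1, AMOTL2 and AJUBA, and in 11.9% of all 35116 windows. CTGF held 3 copies, from -169 to -164, from -104 to -99 and from -95 to -90 relative to its start, as did or exceeded 28 of all windows (0.0797%). The stretches that carry the motif are given because they are the DNA through which TEADs could reach the genes measured here. Capitals mark the motif, and each is written on the strand of its gene.
CTGF, chr6:131951423-131951622, minus strand, bases -250 to -51 before its start: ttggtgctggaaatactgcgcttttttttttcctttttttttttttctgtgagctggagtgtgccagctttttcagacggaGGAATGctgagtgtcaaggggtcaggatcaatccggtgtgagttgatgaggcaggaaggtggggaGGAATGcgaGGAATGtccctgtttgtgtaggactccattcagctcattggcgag
YAP1, chr11:102110197-102110396, plus strand, bases -250 to -51 before its start: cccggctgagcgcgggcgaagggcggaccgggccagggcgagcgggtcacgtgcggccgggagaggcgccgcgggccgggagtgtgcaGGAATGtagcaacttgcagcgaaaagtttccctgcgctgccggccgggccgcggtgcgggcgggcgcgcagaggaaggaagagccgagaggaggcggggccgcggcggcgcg
AMOTL2, chr3:134374499-134374528, minus strand, bases -81 to -52 before its downstream start: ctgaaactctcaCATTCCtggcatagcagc
AJUBA, chr14:22976884-22976913, minus strand, bases -71 to -42 before its downstream start: gggaagttggctGGAATGaagccaaagcaa
A match is a description of letters, not a bound site. The motif did not occur in the windows of WWTR1, TEAD2 and TEAD3, which says nothing on sites elsewhere.

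**Figure D1:**
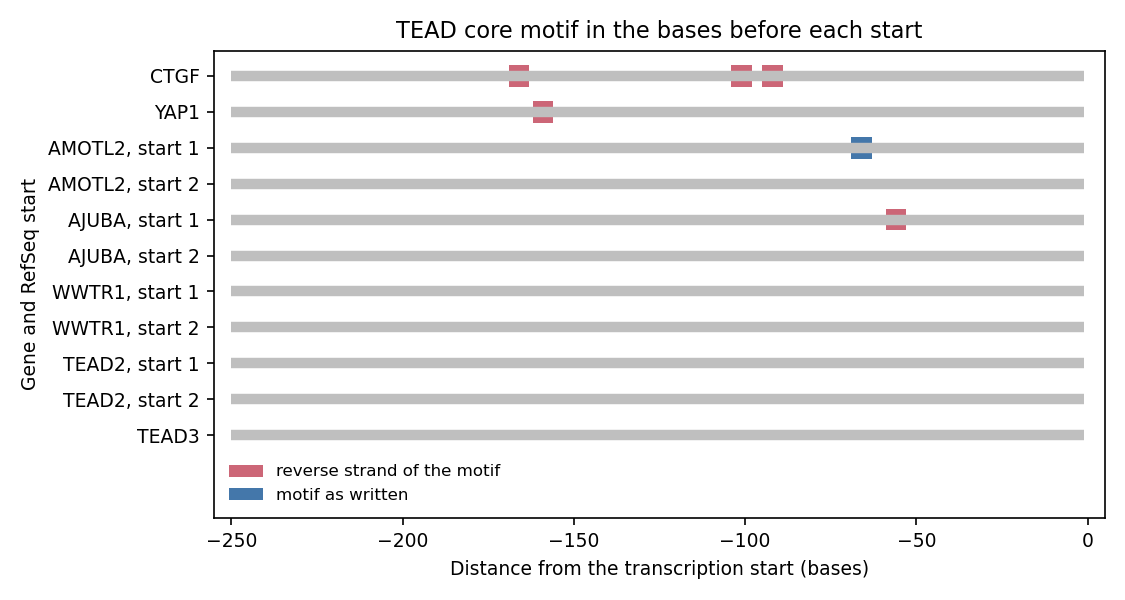
Positions of the TEAD core motif in the 250 bases before each RefSeq start of the 7 genes with a window, with the distance from the transcription start in bases on the x axis and 1 grey line per start. CTGF held 3 copies, YAP1 and the downstream starts of AMOTL2 and AJUBA held 1 each, and the other 7 windows held none.

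YAP1 and WWTR1 were the most abundant of the 10 genes in each group, and both were higher in each si-152 library than in either si-NC library, but neither passed adjustment over all genes. YAP1 lies on chromosome 11 from 102110461 to 102233423 (plus strand, GRCh38, GENCODE release 29). It was at 19.0 and 13.6 FPKM in si-NC replicates 1 and 2, and at 24.9 and 19.4 FPKM in si-152 replicates 1 and 2. The groups thus did not overlap, though si-152 replicate 2 lay just above si-NC replicate 1. The means were 16.3 ± 3.85 FPKM in si-NC and 22.1 ± 3.87 FPKM in si-152 (SD, n = 2 each), so the gap between them, 5.80 FPKM, was larger than either SD. Between libraries of the same replicate number, called pairs here although nothing says that they share a culture or day, YAP1 was 30.5% and 42.5% higher in si-152. On the log2(FPKM + 1) scale the difference by limma was 0.42 (standard error 0.21, 95% interval -0.04 to 0.89), with an adjusted p of 0.9996. It ranged from 0.20 without si-NC replicate 2 to 0.65 without si-NC replicate 1.

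WWTR1 encodes TAZ, the paralog of YAP1, and lies on chromosome 3 from 149517235 to 149736714 (minus strand). It was at 18.1 and 14.3 FPKM with si-NC, against 22.1 and 21.1 FPKM with si-152. Both si-152 libraries lay above both si-NC libraries, and they were closer to each other than the si-NC libraries were. The means were 16.2 ± 2.72 and 21.6 ± 0.688 FPKM (SD, n = 2 each), and the pairs differed by 21.7% and 47.6%. The log2 difference was 0.40 (standard error 0.18, 95% interval -0.0023 to 0.80, adjusted p = 0.9996 by limma), from 0.24 to 0.56 with each library left out in turn. In GENCODE the span of the antisense gene WWTR1-AS1 overlaps that of WWTR1. Whether exons overlap was not examined, and the use of strand in the counting is not given in the sources used here. WWTR1-AS1 has no values in these data, and whether the counting included it is not known. Reads from any shared exon could have been assigned to WWTR1 or, if it was included, to WWTR1-AS1.

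The coactivators were at similar levels in every library. The ratio of YAP1 to WWTR1 was 1.05 and 0.952 in si-NC and 1.13 and 0.919 in si-152, so the replicates differed more than the groups (exact permutation test over the 4 libraries, two-sided, p = 1). The sums used from here on were chosen after the values were seen. The sum of YAP1 and WWTR1 was 37.2 and 27.9 FPKM with si-NC, against 46.9 and 40.5 FPKM with si-152. Its exact permutation p was 0.333, the smallest that 2 against 2 libraries can give.

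**Figure D2:**
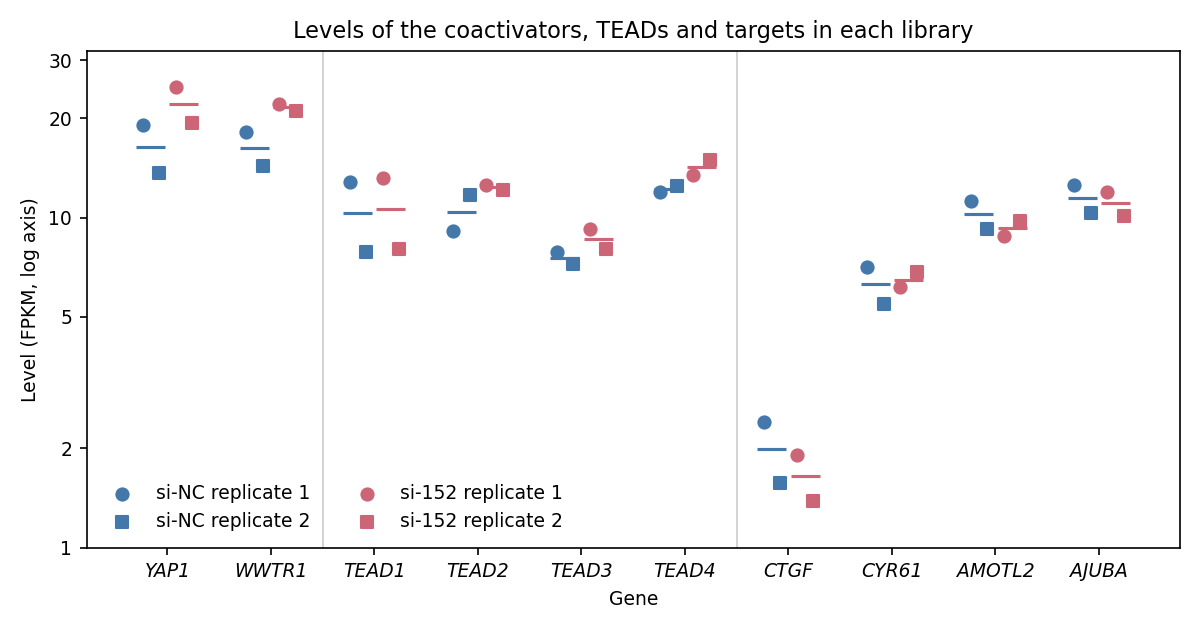
Level of each of the 10 genes in FPKM (log axis) in the 2 si-NC and 2 si-152 libraries, with points for libraries and short lines for group means. YAP1, WWTR1, TEAD2, TEAD3 and TEAD4 were higher in both si-152 libraries than in both si-NC libraries, and CTGF was the lowest gene throughout.

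The TEADs bring YAP1 and TAZ to DNA, since neither coactivator binds DNA itself. All 4 paralogs were detected in every library, between 7.23 and 15.0 FPKM, and none passed the test. TEAD4 (chromosome 12, 2959330 to 3040673, plus strand) was at 12.0 and 12.4 FPKM with si-NC, against 13.4 and 15.0 FPKM with si-152. Its si-NC libraries nearly coincided, and both si-152 libraries lay above them, by 12.3% and 20.6% within the pairs. TEAD3 (chromosome 6, 35473597 to 35497076, minus strand) was at 7.87 and 7.23 FPKM with si-NC, against 9.25 and 8.03 FPKM with si-152. The groups did not overlap here either, but the lowest si-152 value was close to the highest si-NC value. TEAD2 (chromosome 19, 49340595 to 49362457, minus strand) was at 9.09 and 11.7 FPKM with si-NC, against 12.6 and 12.1 FPKM with si-152. It was 38.5% higher in the first pair and 3.81% higher in the second, and with size factors or quantile normalization its groups overlapped. TEAD2 also overlaps CD37 and DKKL1 on the other strand, and in GENCODE YAP1, TEAD1 and CTGF each overlap an antisense gene, so the limit given for WWTR1 holds for them too. Of these overlapping genes only CD37 and DKKL1 have values in these data. WWTR1 and TEAD1 each also overlap an intronic gene on the same strand, without values here.

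TEAD1, the paralog the study examined at the LINC00152 promoter, differed between replicates and hardly between groups. It lies on chromosome 11 from 12674591 to 12944483 (plus strand) and was at 12.8 and 7.88 FPKM with si-NC, against 13.2 and 8.04 FPKM with si-152. Replicate 2 was at 0.615 and 0.610 of replicate 1 in the groups, while the median of all tested genes for this ratio was 0.914 in si-NC and 0.992 in si-152. Between groups TEAD1 differed by 3.03% and 2.10% within the pairs. Its log2 difference was 0.03 (standard error 0.27, 95% interval -0.58 to 0.64) and turned to -0.00085 with quantile normalization. For TEAD2, TEAD3 and TEAD4 the log2 differences were 0.24, 0.17 and 0.20, with standard errors from 0.17 to 0.19 and an adjusted p of 0.9996 each by limma. The 95% intervals ran from -0.18 to 0.66 for TEAD2, from -0.24 to 0.59 for TEAD3 and from -0.18 to 0.59 for TEAD4. Single libraries moved these values, that of TEAD2 from 0.07 without si-NC replicate 1 to 0.41 without si-NC replicate 2. TEAD3 ran from 0.08 without si-152 replicate 1 to 0.26 without si-152 replicate 2, and TEAD4 from 0.13 without si-152 replicate 2 to 0.28 without si-152 replicate 1.

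The paralogs shared the TEAD total unevenly, and the order depended on the replicate. TEAD4 made up 28.7% and 31.7% of the summed TEAD FPKM in si-NC and 27.7% and 34.7% in si-152. TEAD1 made up 30.7% and 20.1% in si-NC and 27.2% and 18.6% in si-152, so that it was the leading paralog in si-NC replicate 1 and held about as much as TEAD4 in si-152 replicate 1. TEAD2 held between 21.8% and 29.8%. TEAD3 held the steadiest share, between 18.4% and 19.1% in all 4 libraries. The mean TEAD4 share differed by 1.03 percentage points between the groups, within the spread of the replicates (exact permutation p = 1). The summed TEAD level was 41.7 and 39.2 FPKM with si-NC, against 48.5 and 43.2 FPKM with si-152.

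**Figure D3:**
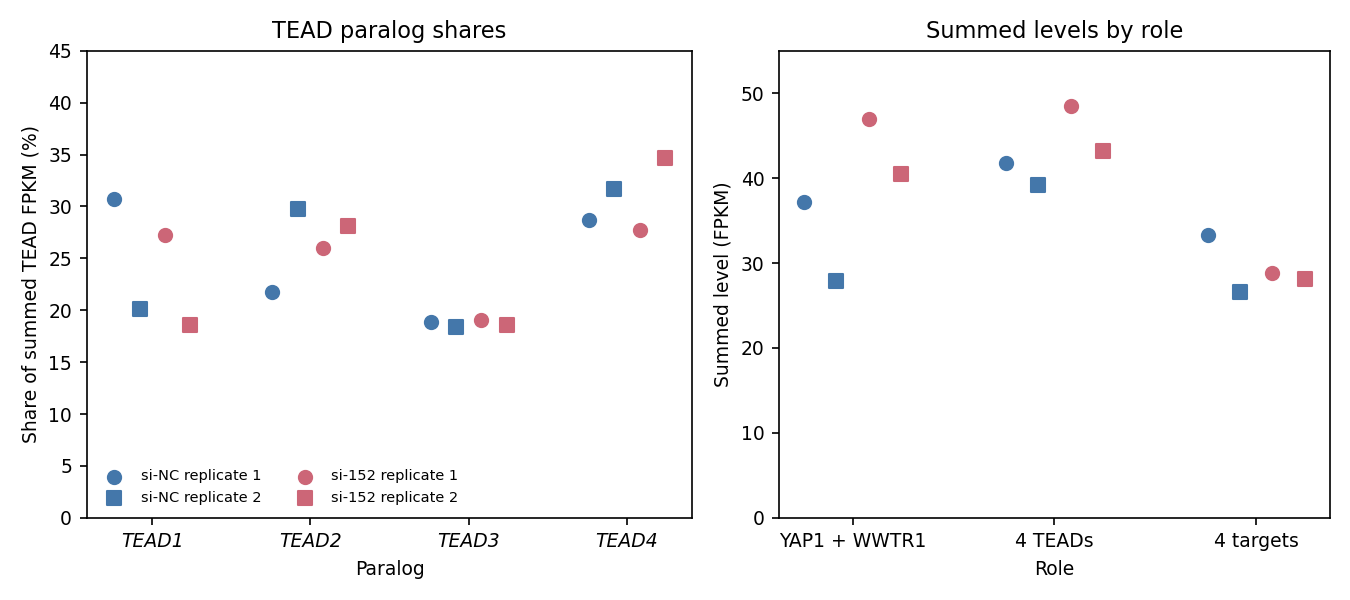
Left, share of each TEAD paralog in the summed TEAD FPKM of a library, in percent. Right, summed FPKM of YAP1 with WWTR1, of the 4 TEADs and of the 4 targets. Points are single libraries, and TEAD3 stayed between 18.4% and 19.1% while the shares of TEAD1 differed between replicates in both groups.

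In none of the 4 targets did the groups separate, and no target passed the test. CTGF encodes a secreted matricellular protein and is a widely used readout of YAP1 and TAZ (chromosome 6, 131948176 to 131951373, minus strand). It was at 2.41 and 1.57 FPKM with si-NC, against 1.91 and 1.38 FPKM with si-152. The pairs differed by -20.5% and -12.1%, yet si-152 replicate 1 lay above si-NC replicate 2, so the groups overlapped. Only 8.36% of the tested genes had a lower mean level. The log2 difference was -0.17 (standard error 0.23, 95% interval -0.67 to 0.34, adjusted p = 0.9996 by limma). It was 0.035 without si-NC replicate 1 and negative with each other library left out.

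CYR61, a secreted protein of the same family, lies on chromosome 1 from 85580761 to 85583962 (plus strand). It was at 7.10 and 5.47 FPKM with si-NC, against 6.15 and 6.83 FPKM with si-152. The pairs went opposite ways, by -13.4% and 24.8%, and the mean difference on the log2 scale was 0.05 (standard error 0.20), turning to -0.00076 with quantile normalization. CTGF was at 0.339 and 0.287 of CYR61 in si-NC and at 0.311 and 0.202 in si-152, so CYR61 was the more abundant of these relatives in every library.

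AMOTL2, an angiomotin family protein, lies on chromosome 3 from 134355874 to 134375479 (minus strand). It was at 11.2 and 9.24 FPKM with si-NC, against 8.79 and 9.78 FPKM with si-152, with pairs that again went opposite ways, by -21.7% and 5.84%. AJUBA, a LIM domain scaffold protein at junctions, lies on chromosome 14 from 22971174 to 22982642 (minus strand). It was at 12.5 and 10.3 FPKM with si-NC, against 12.0 and 10.1 FPKM with si-152, a difference of -4.34% and -2.40% within the pairs, smaller than the gap between replicates of either group. The log2 differences were -0.12 (95% interval -0.54 to 0.30) for AMOTL2 and -0.05 (95% interval -0.47 to 0.38) for AJUBA. AJUBA overlaps a protein-coding gene model and AMOTL2 the pseudogene RPL39P5, each on the same strand, so reads of these could be shared whether or not strand was used. Neither overlapping gene has values in these data, and whether the counting included them is not known.

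The 4 targets summed to 33.3 and 26.6 FPKM with si-NC, against 28.8 and 28.1 FPKM with si-152. Set against the coactivators, this came to 0.895 and 0.955 FPKM of target per FPKM of YAP1 plus WWTR1 in si-NC and to 0.615 and 0.694 in si-152. The groups did not overlap in this ratio, and its exact permutation p of 0.333 is the smallest this design can give. They did not overlap in its divisor, YAP1 plus WWTR1, either, while the target sums overlapped. The ratio is therefore not a result separate from that of the coactivators.

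Read across the 10 genes, 0 passed an adjusted p under 0.05 by limma, against 0.0178% of the tested genes (2 of 11222), and 0 had an unadjusted p under 0.05, against 1.89% of all genes higher and 2.5% lower in si-152. At that p with a fold change above 1.5, the shares over all genes were 0.597% higher and 1.06% lower. The study gives this fold change for its counts of changed genes and a larger one for its pathway analysis. It tested read counts, so its calls and these shares are unlike measures. The groups did not overlap for 5 of the 10, YAP1, WWTR1, TEAD2, TEAD3 and TEAD4, all higher in si-152, where 16.5% of tested genes were higher without overlap. None of the 10 was lower without overlap, where 13.9% of tested genes were. Both pairs showed a higher value for the 2 coactivators and the 4 TEADs (35.6% of all genes) and a lower one for CTGF and AJUBA (27.3% of all genes). The median log2 difference was 0.22 for the coactivators and TEADs and -0.08 for the targets, and 0.02 for all tested genes. Its values in pairs 1 and 2 were 0.24 and 0.19 for the former, -0.20 and 0.02 for the latter, and -0.03 and 0.07 for all genes. The genes share libraries and a pathway, so they are not independent of each other.

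**Figure D4:**
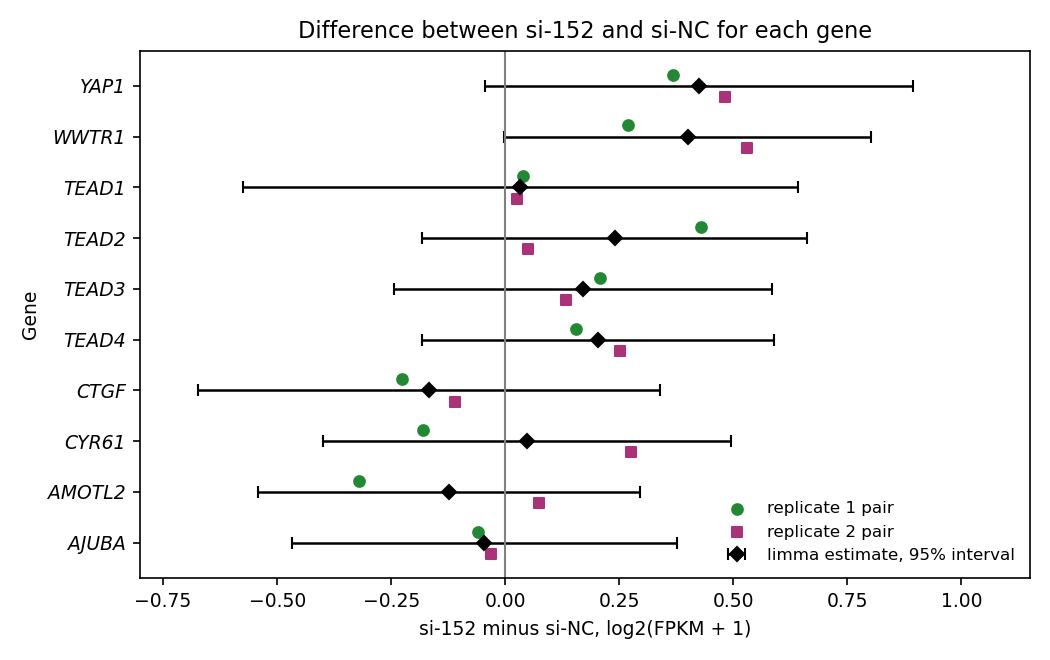
Difference between si-152 and si-NC for each gene on the log2(FPKM + 1) scale, with the limma estimate and its 95% interval (diamond and bar) and the value within each same-numbered pair (points). Every interval includes 0. YAP1, WWTR1 and the TEADs lie above 0 in both pairs (TEAD1 by 0.04 and 0.03, and below 0 in the estimate with quantile normalization), and the targets lie on both sides.

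Ordered by mean level, YAP1 and WWTR1 came first in both groups with overlapping ranges, then TEAD4, whose range lay below theirs. In si-NC the next genes, AJUBA, TEAD2, TEAD1 and AMOTL2, lay between 11.4 and 10.2 FPKM on average with overlapping ranges from each to the next. In si-152 the mean of TEAD2 (12.4 FPKM) was ahead of that of AJUBA (11.0 FPKM). These neighbours narrowly failed to overlap, with TEAD2 at 12.1 FPKM or more and AJUBA at 12.0 FPKM or less. In si-NC their order depended on the replicate, with AJUBA higher in replicate 1 and TEAD2 higher in replicate 2. TEAD3, CYR61 and CTGF closed the order in each group, and CTGF lay far below CYR61. Over all 4 libraries the 10 genes spanned a wide part of the transcriptome, from CTGF to YAP1, whose mean exceeded that of 69.2% of the tested genes.

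None of the upstream pathway genes passed adjustment. Of 19 regulators and kinases 17 were tested, FAT4 and DCHS1 being under 1 FPKM in every library, and 0 of the 17 had an unadjusted p under 0.05 by limma, beside 1.89% of all tested genes higher and 2.5% lower. This count changed when single libraries were left out, and the share of all genes in those fits is not given here. Their log2 differences were above 0 in 12 and below 0 in 5, with a median of 0.15 (0.10 in pair 1 and 0.17 in pair 2). NF2, the merlin tumour suppressor, was at 14.5 and 10.6 FPKM with si-NC, against 11.9 and 9.71 FPKM with si-152. It was lower in si-152 within each pair, but the groups overlapped. SAV1, the scaffold of the MST kinases, showed the same pattern, at 21.2 and 17.9 FPKM against 17.9 and 17.0 FPKM.

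Of the core kinases, STK4 (MST1) was at 11.0 and 7.49 FPKM with si-NC, against 11.3 and 8.76 FPKM with si-152, and STK3 (MST2) at 12.3 and 10.0 FPKM and at 9.69 and 11.0 FPKM. LATS1 was at 3.45 and 2.33 FPKM with si-NC, against 3.82 and 2.76 FPKM with si-152. LATS2, which is both a kinase of the pathway and a YAP1 target, was at 3.12 and 2.30 FPKM with si-NC, against 4.10 and 3.66 FPKM with si-152. Its groups did not overlap, with a log2 difference of 0.40 (standard error 0.21, adjusted p = 0.9996 by limma) that was 0.24 without si-NC replicate 2. In the whole list 3 of 17 tested genes were higher without overlap, LATS2 and, named after their values were seen, WWC1 and TAOK3, beside 16.5% of all tested genes. The surface proteins led the list by level. CD44, the hyaluronan receptor, was at 87.4 and 75.4 FPKM against 80.0 and 71.0 FPKM, and FAT1, an atypical cadherin, at 37.2 and 21.9 FPKM against 44.1 and 23.6 FPKM. FAT1, like TEAD1, differed more between replicates than between groups. FAT4 was between 0.0739 and 0.223 FPKM.

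Of 18 cofactors and junction partners 14 were tested, with VGLL1 and VGLL2 listed at 0 in all libraries and VGLL3 and AMOT under 1 FPKM. The log2 differences were above 0 in 12 and below 0 in 2, with a median of 0.14 (0.09 in pair 1 and 0.20 in pair 2). Without overlap 5 of the 14 were higher in si-152 and 0 lower, beside 16.5% and 13.9% of all tested genes. An unadjusted p under 0.05 was reached by 2 of the 14, both higher in si-152, and an adjusted p by 0, beside 1.89% of all tested genes higher at that unadjusted p. The count of 2 was lower with some single libraries left out, and the share of all genes in those fits is not given here. VGLL4, which competes with YAP1 for TEADs, was at 14.8 and 14.6 FPKM with si-NC, against 18.8 and 21.2 FPKM with si-152. Its si-NC libraries nearly coincided and its si-152 libraries were both higher, with a log2 difference of 0.42 (standard error 0.17, adjusted p = 0.9996 by limma). SCRIB, a polarity protein, was at 2.98 and 2.16 FPKM with si-NC, against 3.33 and 9.07 FPKM with si-152. The gap came mainly from si-152 replicate 2, and the log2 difference of 0.90 dropped to 0.29 without it. CSNK1D and CSNK1E, casein kinases that mark YAP1 for degradation, led the list by level. CSNK1D was at 47.5 and 49.0 FPKM against 51.6 and 55.7 FPKM, and CSNK1E at 37.2 and 35.4 FPKM against 39.2 and 40.2 FPKM.

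A further 20 YAP1 and TAZ targets had differences in both directions. Of the 15 tested, 8 had a log2 difference above 0 and 7 below, with a median of 0.0070 (LATS2 and PTPN14 each stand on another list too). ANKRD1, FOXF2, CCDC80, TGFB2 and RBMS3 were under 1 FPKM in every library. NT5E, an ectonucleotidase, was the 1 gene of the 15 with an unadjusted p below 0.05 by limma, beside 1.89% of all tested genes higher and 2.5% lower, and with size factors or without the trend the count was 0. NT5E measured 50.8 and 42.5 FPKM with si-NC, against 62.4 and 59.9 FPKM with si-152 (log2 difference 0.39, standard error 0.17, adjusted p = 0.9996 by limma). AREG, the EGFR ligand that the study names as a YAP1 target, was at 325 and 261 FPKM with si-NC, against 228 and 231 FPKM with si-152. Both si-152 libraries of AREG were lower than both si-NC libraries, with differences of -29.9% and -11.4% within the pairs. GADD45A, a stress-response gene, was at 229.9 and 209.4 FPKM against 147.8 and 191.7 FPKM. The groups did not overlap for 6 of the 15 tested, with LATS2, AXL and NT5E higher and AREG, GADD45A and NUAK2 lower in si-152 (AXL and NUAK2 are named after their values were seen). By this measure 3 of 15 stood higher and 3 of 15 lower, beside 16.5% and 13.9% of all tested genes.

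**Figure D5:**
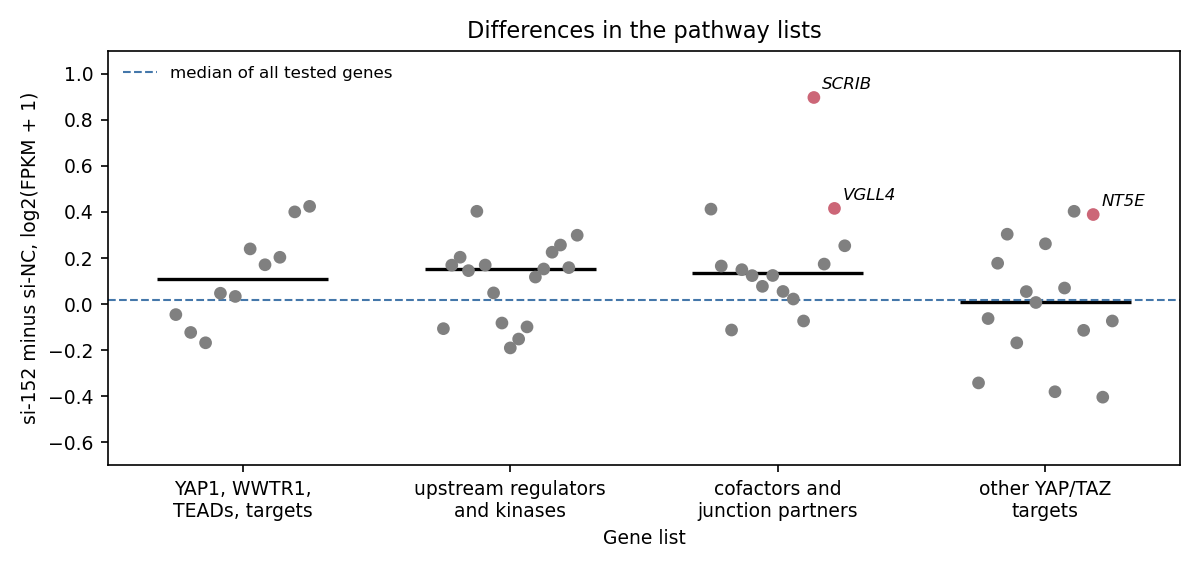
Difference between si-152 and si-NC on the log2(FPKM + 1) scale for the tested genes of 4 lists, with black lines for list medians and a dashed line for the median of all tested genes (0.02). Red points are the genes with an unadjusted p under 0.05 by limma, SCRIB, VGLL4 and NT5E, none of which passed adjustment.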

How the data were processed

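RNA of 4 HCT116 libraries (si-NC and si-152, 2 replicates each, grouped by the sample titles) was sequenced. The authors deposited 1 table per library, with values read here as FPKM because they carry decimals and sum differently between libraries. The submitters' processing notes name Trimmomatic, TopHat, HISAT2, HTSeq and DESeq and the build GRCh38. The tool that made the FPKM values is not given in the sources used here. Fragments counted per gene length depend on the annotation, and reads shared by overlapping genes can be split or lost. The differential test of the study used read counts, which were not used here.

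Values were not rescaled. The 11222 genes that reached 1 FPKM in 2 or more libraries were compared on log2(FPKM + 1) by limma 3.58.1 (R 4.3.3). Variances were moderated along a trend with the mean level, and p-values were adjusted over the 11222 genes by the Benjamini-Hochberg method. Because of the added 1, differences of genes at low FPKM come out too small. Ratios and shares were compared by exact permutation over libraries in scipy 1.17.1, where p cannot go below 0.333. The limma p-values rest on the spread between the replicates given only in part, since each variance is drawn toward that of genes of like level. The permutation p-values rest on regroupings of the 4 libraries. The script was tested on simulated data. The members and lists were chosen with earlier results of these data known, and the lists come from general knowledge. Genes named in the lists are those the study discusses, those with an unadjusted p under 0.05 and the 2 with the highest mean. A search for genes of like pattern was not made with 4 libraries. Alternatives varied the pseudocount, the filter, the scaling, the trend, a replicate block and each library left out. Coordinates are from GENCODE release 29 and promoter sequences from RefSeq (GRCh38.p14).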

Additional observations from a re-analysis of the deposited data

How the results depend on the processing

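Over 11 alternatives for each of the 10 genes, 0 passed an adjusted p under 0.05 by limma, and the lowest adjusted p was 0.116, for YAP1 with the replicate block. The direction held in all alternatives for 5 genes, YAP1, WWTR1, TEAD2, TEAD3 and TEAD4, and turned for the other 5. For the former, whose groups did not overlap, only size factors and quantile normalization could have turned it. Leaving out a library or lowering the pseudocount cannot turn the direction where groups do not overlap. The filters, the block and the trend leave the estimate as it is. Leaving out single libraries, the log2 difference ran from -0.29 to 0.36 for TEAD1, from -0.37 to 0.035 for CTGF, from -0.11 to 0.21 for CYR61, from -0.25 to 0.0047 for AMOTL2 and from -0.17 to 0.082 for AJUBA. With quantile normalization it was -0.00085 for TEAD1 and -0.00076 for CYR61. The cause of the turns was not tested. At an unadjusted p under 0.05 by limma, the replicate block gave 2 of the 10 (YAP1 and WWTR1). Size factors and quantile normalization gave 1 each (WWTR1). The number higher without overlap was 4 with size factors or quantile normalization, TEAD2 being lost (an alternative chosen after seeing the data). The shares of all genes under these settings are not given here, so neither count can be read as a result about the 10 genes. Over all genes, 2 passed the adjusted p and the block raised this to 78. The count was 0 where all 4 libraries had to reach 1 FPKM, 1 each with a pseudocount of 0.1, without a filter, with size factors, with quantile normalization and without the trend, and 45 to 78 with a library left out. With 1 library left in a group, its spread is assumed to be that of the other group. Among the cofactors 0 to 1 passed adjustment with a library left out, the 1 being SCRIB, without si-NC replicate 1 or si-152 replicate 1.

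The replicate numbers of the labels name replicates and are not said to mark a shared day. Across genes, which are not independent, libraries sharing a number deviated together from the means of their groups (r = 0.52). With the replicate block YAP1 and WWTR1 had adjusted p-values of 0.116 and 0.150 by limma, and the block changed no call at an adjusted p under 0.05 on the 10 genes. At an unadjusted p under 0.05 the block gave 1 upstream gene (LATS2) and 3 cofactors (VGLL4, SCRIB and AMOTL1). It also gave 6 of the other targets (NT5E, LATS2, AXL, NUAK2, GADD45A and AREG). The share of all genes at that p with the block is not given here. The shares given for all genes come from the fit without the block, so these counts cannot be read against them. The depth is unknown, and 2 libraries a group leave intervals that include both no difference and differences near 1.5 times for most of the 10.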
